A study of Mus musculus with 36 samples.

Results

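Macrophages are immune cells that engulf debris and microbes, and embryonic fibroblast preparations can carry some of them from the tissue. The transcripts described here are those of 10 genes that mark them: Cd68, Csf1r, Adgre1, Lyz2, C1qa, C1qb, C1qc, Tyrobp, Fcer1g and Ptprc. The genes were taken by symbol, and all 10 were found in both deposited tables, among 50509 gene symbols. Macrophage survival depends on the CSF1 receptor, which Csf1r encodes and which binds CSF1 and IL34. TYROBP and FCER1G are small membrane adapters that pair with activating receptors and recruit the kinase SYK. C1QA, C1QB and C1QC assemble into C1q, which starts the classical complement pathway together with the proteases C1r and C1s.

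The cells were mouse embryonic fibroblasts of embryonic days 12.5 to 13.5, from a strain that carries mCherry under the heart muscle promoter of Myh6. GHMT cells had been transduced with Gata4, Hand2, Mef2c and Tbx5, the transcription factors used to turn fibroblasts towards heart muscle cells, and uninfected cells had not. Each arm was treated with 1% DMSO or left untreated and sampled on days 2, 7 and 21, so that 12 groups of 3 libraries were measured. All groups grew in a serum-free blood cell medium with FGF2, FGF10 and VEGF. RNA was sequenced in bulk and the authors gave TPM, a level per transcript length scaled to a common library total. In bulk RNA, fewer cells of a type and less RNA per cell cannot be told apart. The labels do not say that replicates were separate cultures, so p-values measure only the spread between these libraries, which may be technical.

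Fibroblast markers were high in every library: the summed level of 10 fibroblast genes was 3600 to 6978 TPM in GHMT libraries and 7173 to 29081 TPM in uninfected libraries. Summed over the 10 macrophage genes, the level was 39.4 to 392 TPM in GHMT libraries, with a median of 145 TPM. In uninfected libraries it was 18.1 to 162 TPM, with a median of 44.0 TPM. Of the 10 genes, 9 were above 0 TPM in all 36 libraries, and Fcer1g was listed at 0 in 1 GHMT library. The arms were deposited as separate tables, so their levels are set side by side with no test.

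The promoter is shown for 4 of the genes that moved together across libraries: C1qb, C1qc, Cd68 and Lyz2. C1qb and C1qc are next to each other on chromosome 4 in the RefSeq gene order, and C1qa is next to C1qc. Cd68 is a marker of lysosomes, and Lyz2 was the most abundant of the 10. Each promoter is the 250 bases before the transcription start site on the minus strand of GRCm38.p6 from RefSeq, written 5′ to 3′ in the direction of transcription. Capitals mark GAGGAA or its reverse complement TTCCTC, the core of the box bound by PU.1, the transcription factor encoded by Spi1. The windows lie at chr4:136886201-136886450 for C1qb, chr4:136892915-136893164 for C1qc, chr11:69666171-69666420 for Cd68 and chr10:117282273-117282522 for Lyz2.
C1qb: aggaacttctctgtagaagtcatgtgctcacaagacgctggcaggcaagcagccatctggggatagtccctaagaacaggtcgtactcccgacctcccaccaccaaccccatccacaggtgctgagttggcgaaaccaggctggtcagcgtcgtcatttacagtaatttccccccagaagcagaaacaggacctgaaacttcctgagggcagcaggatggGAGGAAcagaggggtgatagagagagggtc
C1qc: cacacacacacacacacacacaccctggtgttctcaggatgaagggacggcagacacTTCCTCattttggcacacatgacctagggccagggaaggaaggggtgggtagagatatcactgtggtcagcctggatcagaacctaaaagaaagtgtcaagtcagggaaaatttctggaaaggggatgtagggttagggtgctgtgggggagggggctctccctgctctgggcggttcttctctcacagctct
Cd68: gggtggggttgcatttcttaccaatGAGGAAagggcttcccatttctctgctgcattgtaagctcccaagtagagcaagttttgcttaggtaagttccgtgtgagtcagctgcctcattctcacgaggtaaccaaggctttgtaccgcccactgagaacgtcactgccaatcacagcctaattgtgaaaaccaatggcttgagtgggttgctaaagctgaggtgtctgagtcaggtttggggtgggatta
Lyz2: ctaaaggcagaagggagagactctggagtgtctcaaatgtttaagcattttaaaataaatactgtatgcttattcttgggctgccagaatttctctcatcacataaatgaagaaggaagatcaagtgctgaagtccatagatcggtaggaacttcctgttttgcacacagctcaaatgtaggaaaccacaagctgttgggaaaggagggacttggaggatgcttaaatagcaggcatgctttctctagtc
The motif started at position -30 in C1qb, at -193 in C1qc and at -225 in Cd68, counted from the start site, and was not found in the Lyz2 window. RefSeq windows were at hand for 6 of the 10 genes, and 4 of these 6 genes held the motif on either strand, the other being Ptprc at -158 in 1 of its windows. Counted by window, it was 4 of the 7 windows of these genes. Among all 32851 promoter windows of the table, 23.25% held it in the same 250 bases. Spi1 itself was low, at 0 to 3.95 TPM with a median of 1.17 TPM in GHMT libraries, and at 0.0409 to 1.46 TPM with a median of 0.35 TPM in uninfected libraries.

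In GHMT cells the marker level was set apart by replicate number in every group. In GHMT cells with DMSO on day 2 the summed level was 177, 392 and 61.5 TPM in replicates 1, 2 and 3, against 163, 364 and 57.5 TPM in untreated cells. On day 7 it was 152, 364 and 45.3 TPM with DMSO, against 138, 380 and 53.7 TPM untreated. On day 21 it was 103, 283 and 39.4 TPM with DMSO, against 126, 325 and 60.9 TPM untreated. Replicate 2 was the highest and replicate 3 the lowest in all 6 groups, by 5.33 to 8.05 times between the extremes.

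**Figure D1:**
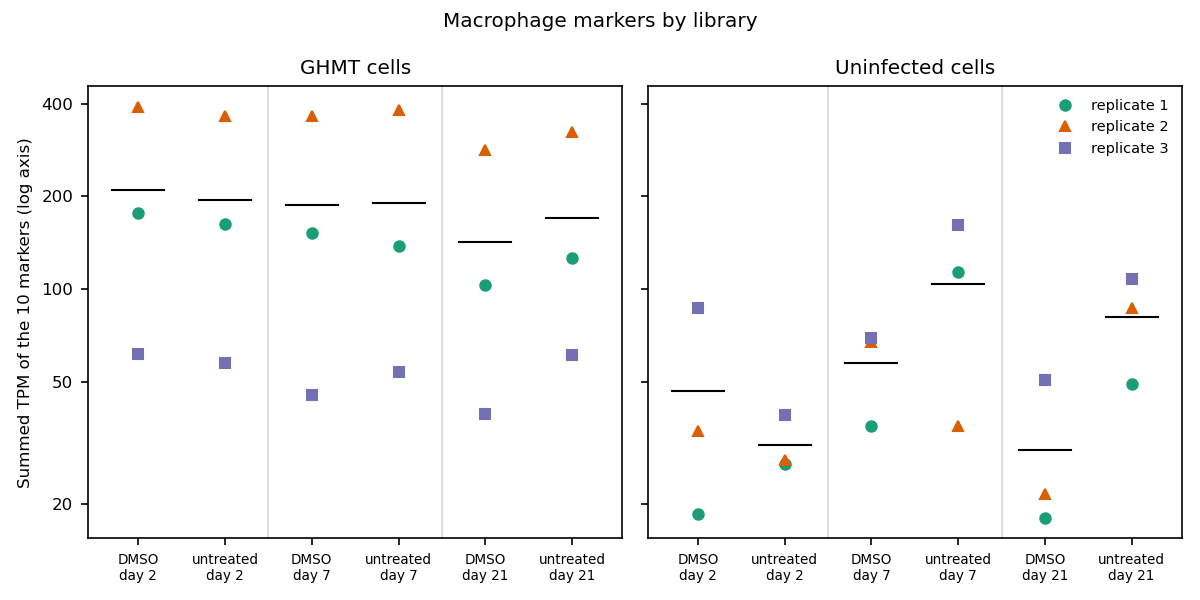
Summed TPM of the 10 macrophage markers (log axis) in each of the 36 libraries, by day and treatment, for GHMT cells (left) and uninfected cells (right); symbols give the replicate number and lines the group mean of 3. In GHMT cells replicate 2 lies at 283 to 392 TPM and replicate 3 at 39.4 to 61.5 TPM in all 6 groups, while in uninfected cells replicate 3 is the highest in all 6 groups and replicates 1 and 2 change places.

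Each of the 10 genes showed this order on its own, with replicate 2 highest and replicate 3 lowest in 6 of 6 groups. Of the 20618 genes tested in GHMT cells, 0.31% did so. For 1.92% of them the same number, whichever it was, was the highest in all 6 groups, and for 2.68% the same number was the lowest. Lyz2, which encodes the lysozyme of myeloid cells, was at 149, 145 and 104 TPM in replicate 2 with DMSO on days 2, 7 and 21, and at 24.5, 22.3 and 15.9 TPM in replicate 3. Adgre1, which encodes the F4/80 surface antigen, ranged from 5.21 to 6.57 TPM in replicate 2 with DMSO and from 0.238 to 0.625 TPM in replicate 3. The replicate number took 91.2% (Ptprc) to 98.9% (Lyz2) of the sum of squares within groups on the log2(TPM + 1) scale, with a median of 96.1%. Over all genes tested the median was 20.2%. The standard deviation within groups was accordingly large, at 0.70 to 1.46 log2 units for the 10 genes, against a median of 0.27 over all genes.

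Of the 64 genes that had it, 10 were the markers themselves and 16 stood in other lists of myeloid genes. Among the other macrophage markers, 13 of the 34 tested had it, such as Ctss (cathepsin S), Trem2 and Fcgr3, a receptor for antibody. Among receptors and kinases of the TYROBP and FCER1G adapters it was 6 of 14. The other 38 genes were in no list, and among them, named after their values were seen, were the scavenger receptors Msr1 and Marco, the Toll-like receptors Tlr7 and Tlr13, the chemokines Ccl3 and Ccl4, and Siglec1. None of the 10 fibroblast, 3 endothelial, 6 proliferation, 7 complement and 12 myeloid transcription factor genes tested had it. Lacking that exact order does not mean that the replicate number played no part. Its median share of the sum of squares ran from 15.3% for the complement genes to 46.4% for the myeloid transcription factors, against 20.2% over all genes.

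Values that describe the libraries overlapped between replicate 2 and replicate 3 in GHMT cells. Protein-coding genes held 59.0 to 63.6% of TPM in replicate 2 and 57.0 to 62.8% in replicate 3. The number of genes at 1 TPM or more was 16908 to 18486 in replicate 2 and 16859 to 18427 in replicate 3. The summed fibroblast markers were 4003 to 6198 TPM in replicate 2 and 4695 to 6978 TPM in replicate 3. The summed proliferation markers, which spanned 44.9 to 349 TPM in replicate 2 and 18.8 to 431 TPM in replicate 3, had medians of 98.5 TPM in replicate 2 and 218 TPM in replicate 3, and their part in the marker levels was not tested.

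In uninfected cells the replicate number counted for less. It took 18.1% (Fcer1g) to 63.8% (Lyz2) of the sum of squares within groups, with a median of 43.0% over the 9 genes tested and 19.5% over all genes. Replicate 3 was the highest in 6 of 6 groups for Lyz2 and Tyrobp, and in 4 or 5 groups for each of the other 7 genes. The same number was the highest in all 6 groups for 2.33% of all genes. In untreated cells of day 7 it was replicate 2 that lay apart, with 36.1 TPM in sum, beside 113 and 162 TPM in replicates 1 and 3.

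**Figure D2:**
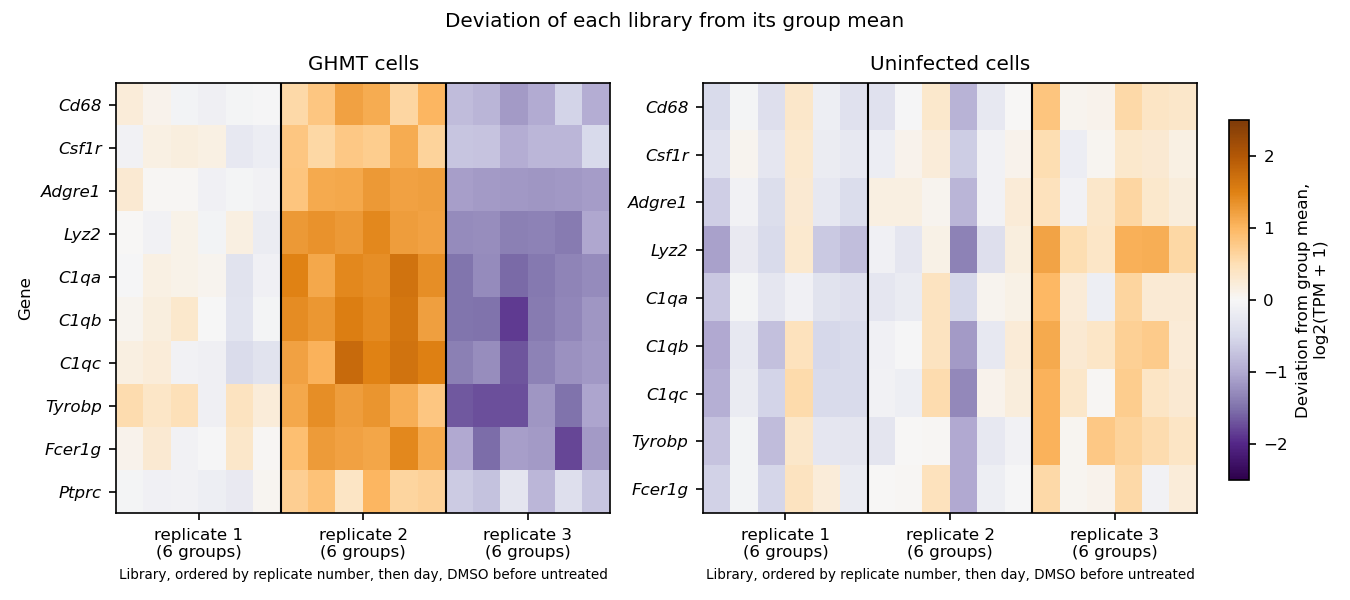
Deviation of each library from its group mean in log2(TPM + 1), for the 10 genes in GHMT cells and the 9 tested in uninfected cells; columns are the 18 libraries of each arm, ordered by replicate number, then day, with DMSO before untreated. All 10 genes in GHMT cells are above the group mean in replicate 2 and below it in replicate 3, in all 6 groups, whereas in uninfected cells the pattern is weaker.

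The 10 genes moved together from library to library. Over the 18 GHMT libraries, Pearson's r between pairs of them ran from 0.84 (Tyrobp and Ptprc) to 0.99 (C1qa and C1qb), with a median of 0.92 over 45 pairs. Over the 18 uninfected libraries it ran from 0.60 (C1qa and Fcer1g) to 0.98 (C1qb and C1qc), with a median of 0.88 over 36 pairs. After the group means were taken away, the medians were 0.96 in GHMT and 0.89 in uninfected libraries. These are descriptions, since libraries of a group share a treatment and a day, and all values of a library share its total. As the markers moved together, counts of markers in any comparison are not counts of separate observations.

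The genes most like the mean profile of the markers were sought among 12578 genes at a mean of 1 TPM or more in each table, by the smaller of the r values in the 2 tables. The 10 closest were Laptm5, Adam8, Lilrb4a, Fcgr3, Trem2, Ms4a6c, Ctss, Lilr4b, Cd84 and Ms4a6b, at 0.95 for Laptm5 down to 0.90 for Ms4a6b. The median over all eligible genes was -0.15, and 15 genes reached 0.8. Laptm5 encodes a lysosomal membrane protein of blood cells, and Lilrb4a an inhibitory receptor of myeloid cells. Ctss was at 1.21 to 53.7 TPM in GHMT libraries and at 0.216 to 5.89 TPM in uninfected libraries.

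DMSO was compared with untreated cells within each arm and day. In GHMT cells none of the 10 markers passed the test on any day (limma on log2(TPM + 1), adjusted p of at least 0.54), and 0 had an unadjusted p under 0.05, where 3.42%, 15.6% and 24.1% of all genes had one on days 2, 7 and 21. Over all genes the same test called 0.00485% on day 2, 0.708% on day 7 and 4.59% on day 21. The median difference over the 10 was 0.03 on day 2, -0.20 on day 7 and -0.36 on day 21, with 0.04, 0.07 and -0.06 over all genes. Below 0 were 5, 8 and 9 of the 10 on these days, as were 40.1%, 41% and 55.2% of all genes. The standard errors of the 10 genes were 0.53 to 1.09 log2 units in this fit, which leaves the replicate number out. They were 0.13 to 0.22 with replicate number as a block within the day.

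In this fit the sign of the difference changed without 1 of the 6 libraries for 10 of the 10 genes on day 2, 9 on day 7 and 7 on day 21. Leaving out 1 library also leaves unequal sets of replicate numbers in the 2 groups, so these changes do not bear on the differences within pairs. Adgre1 and Fcer1g had the most negative differences on day 7, and the C1q genes lay near 0. On day 7, Adgre1 was at 2.51, 6.57 and 0.531 TPM in replicates 1, 2 and 3 of DMSO-treated GHMT cells, against 3.90, 11.9 and 1.34 TPM in untreated ones. The DMSO library was the lower in each of the 3 pairs, by 0.48, 0.77 and 0.61 log2 units, although the groups overlapped. With DMSO, Fcer1g was at 3.60, 10.2 and 1.27 TPM, against 6.77, 16.6 and 2.60 TPM untreated, again lower in each pair. On days 2 and 7 the same replicate numbers of the GHMT arm deviated together, so a fit with replicate number as a block within the day applies there. With that block, Adgre1 fell by 0.62 ± 0.13 (SE) log2 units with DMSO on day 7 (limma, adjusted p = 0.038), the only one of the 10 genes called, where 5.34% of all genes were called. Fcer1g, at -0.69 ± 0.22, did not pass (adjusted p = 0.11). With a block over all days of the arm, the Adgre1 call was lost (adjusted p = 0.073). Over all genes GHMT DMSO replicate 1 of day 7 had a median r of 0.93 with its own group and was closest to untreated replicate 1 of that day. Without that library, in the fit with no block, Adgre1 was at -0.64. On day 2 the block called none of the 10 (limma, 0 at an unadjusted p under 0.05), where 0.00485% of all genes were called. In all 3 pairs of day 2, 2 of the 10 markers were lower with DMSO, as were 12.8% of all genes. In all 3 pairs of day 7, 4 of the 10 were lower with DMSO (Cd68, Csf1r, Adgre1 and Fcer1g), as were 15.9% of all genes.

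The C1q subunits had differences nearer 0 on day 7. C1qa was at 18.8, 48.1 and 5.24 TPM with DMSO, against 18.6, 47.0 and 5.87 TPM untreated. With the block, the difference was -0.03 ± 0.14 (SE) log2 units for C1qa, -0.10 ± 0.13 for C1qc and 0.15 ± 0.17 for C1qb, and none was called (limma, adjusted p of at least 0.65). Whether these differ from the difference of Adgre1 was not tested. The mean of the C1q subunits over Fcer1g within a library was 4.85, 4.73 and 3.28 with DMSO on day 7, against 2.28, 2.61 and 2.02 untreated, with no overlap. On day 2 these ratios were 2.66, 3.69 and 2.14 with DMSO, against 1.90, 1.90 and 2.87 untreated, and they overlapped. On day 21 they were 2.90 and 5.19 in replicates 1 and 2 with DMSO, with no ratio in replicate 3, where Fcer1g was listed at 0, against 2.36, 3.05 and 3.13 untreated, and they overlapped too. The ratios were chosen after the values were seen and are given without a test.

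**Figure D3:**
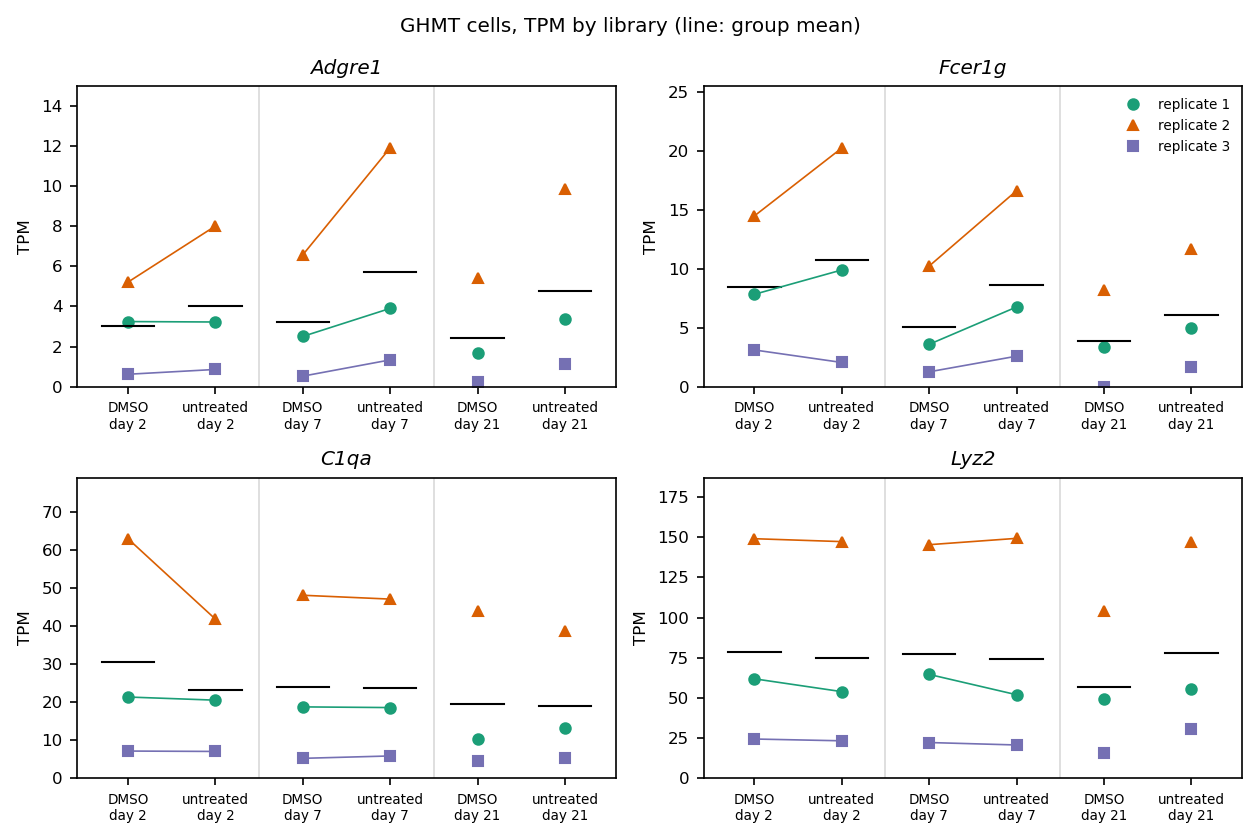
TPM of Adgre1, Fcer1g, C1qa and Lyz2 in the 18 GHMT libraries, by day, with DMSO left of untreated; symbols give the replicate number, black lines the mean of 3, and thin lines join same-numbered libraries on days 2 and 7. On day 7 the 3 lines of Adgre1 and Fcer1g are lower at the DMSO end, and those of C1qa are nearly flat.

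On day 21 the DMSO-treated GHMT libraries held less Tyrobp, at 6.82, 11.4 and 1.08 TPM, against 10.6, 16.5 and 3.85 TPM untreated, but the groups overlapped and the difference of -0.76 ± 1.03 (SE) was not called (limma, adjusted p = 0.68). That fit leaves the replicate number out. In same-numbered pairs the differences of Tyrobp were -0.57, -0.50 and -1.22 log2 units in replicates 1, 2 and 3. Fcer1g was at 3.38 and 8.25 TPM in replicates 1 and 2 with DMSO and listed at 0 in replicate 3, against 5.01, 11.7 and 1.64 TPM untreated. Csf1r was at 2.27, 7.35 and 1.11 TPM with DMSO, against 4.40, 8.50 and 3.28 TPM untreated, a difference of -0.64 ± 0.60 (adjusted p = 0.54). C1qc was at 8.17, 38.9 and 4.36 TPM with DMSO, against 8.38, 33.3 and 4.32 TPM untreated. For none of the 10 genes were all 3 DMSO libraries below all 3 untreated ones, on day 21 or on days 2 and 7, as they were for 13.2%, 2.98% and 6.9% of all genes. Replicates 2 and 3 lay 5.33 to 8.05 times apart in summed level in each group, so this count does not bear on differences within pairs. In all 3 pairs of day 21, 5 of the 10 were lower with DMSO (Csf1r, Adgre1, Lyz2, Tyrobp and Fcer1g), as were 24.6% of all genes. With replicate number as a block within the day, Adgre1, Csf1r and Lyz2 were called (limma), where 2536 of 20618 genes were. Same-numbered libraries of day 21 correlated at r of 0.0716 to 0.192 over all genes, so the rule for pairing was not met. That rule is set over all genes. The 10 markers themselves had replicate 2 highest and replicate 3 lowest on day 21 too, so the fit with no block leaves out a pairing that they showed. A block over the arm called Adgre1 and Lyz2, and no marker without DMSO replicate 3 of that day. Over all genes, GHMT DMSO replicate 3 of day 21 had the lowest median r with its own group of the 36 libraries, at 0.91. In the fit with no block, leaving it out took the lowest replicate number from 1 group only. The differences of C1qa, C1qb, Cd68, Fcer1g and Lyz2 were then above 0, with Lyz2 at 0.19 in place of -0.52. C1qb and Cd68, at -0.03 and -0.01, were also above 0 when the values were rescaled to protein-coding genes (0.04 and 0.06).

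In uninfected cells marker levels were lower with DMSO on days 7 and 21, but no marker passed the test. On day 2 all 9 markers tested were slightly higher with DMSO (median difference 0.25, where that of all genes was 0.05 and 41.9% of all genes were below 0), and none was called (limma, adjusted p of at least 0.89), where 0.285% of all genes were called. Ptprc, the CD45 phosphatase of all leukocytes, reached 1 TPM in only 2 uninfected libraries and was not tested there. The positive differences of day 2 rested on DMSO replicate 3. Without it all 9 were negative, from -0.05 (Fcer1g) to -0.29 (Cd68).

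On day 7 all 9 were lower with DMSO, with a median difference of -0.76, where that of all genes was 0 and 49.9% of them were below 0. Tyrobp was at 1.13, 2.80 and 5.47 TPM with DMSO, against 10.6, 3.55 and 13.4 TPM untreated, so that the groups overlapped only through untreated replicate 2. The difference was -1.28 ± 0.50 (SE) log2 units and was not called (limma, adjusted p = 0.22). None of the 9 was called, 3 had an unadjusted p under 0.05 (Tyrobp, Csf1r and Fcer1g), as had 15.7% of all genes, and 1.69% of all genes were called. Without untreated replicate 2 the differences were larger, with Lyz2 at -1.09 in place of -0.41, and the lowest adjusted p was 0.077 (Fcer1g). Without untreated replicate 3, Lyz2 was at 0.12.

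On day 21 the separation was clearest. All 9 markers were lower with DMSO, with a median difference of -1.21, where that of all genes was 0.01 and 48.5% of them were below 0. Lyz2 was at 8.20, 10.1 and 30.2 TPM with DMSO, against 23.5, 47.2 and 63.0 TPM untreated, with 1 DMSO library above the lowest untreated one. C1qa was at 0.783, 1.38 and 1.71 TPM with DMSO, against 2.98, 4.69 and 5.30 TPM untreated. C1qc was at 1.14, 2.20 and 2.93 TPM with DMSO, against 4.69, 8.19 and 8.65 TPM untreated. All 3 DMSO libraries were below all 3 untreated ones for C1qa, C1qc, Tyrobp, Csf1r, Adgre1 and Fcer1g, 6 of the 9 genes, as they were for 7.15% of all genes. On days 2 and 7 this held for 0 of the 9 markers, and for 5.36% and 14.2% of all genes. None was called over all genes, of which 2.36% were called, but 8 of the 9 had an unadjusted p under 0.05, as had 13.6% of all genes. The 9 markers moved together across uninfected libraries (median r of 0.88), so these counts are not 9 separate observations. The lowest adjusted p was that of C1qa, at a difference of -1.21 ± 0.39 (SE; limma, adjusted p = 0.14), followed by Csf1r at -0.75 ± 0.27 (adjusted p = 0.20). The sign held for all 9 without any 1 of the 6 libraries, with an adjusted p of at least 0.10. Over all genes, untreated replicate 1 of day 21 had the lowest median r with its own group of the 18 uninfected libraries, at 0.94, and was closest to a DMSO library of that day. Without it C1qa was at -1.41 (adjusted p = 0.10). In the same comparison all 10 fibroblast markers were lower with DMSO, with a median of -0.61 and 3 of them called (Postn, Thy1 and Col3a1, of which Thy1 was lost without DMSO replicate 2 and Col3a1 without 4 of the 6 libraries), and 6 of 6 proliferation markers were higher, with a median of 0.68 and none called. Their part in the marker differences was not tested.

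**Figure D4:**
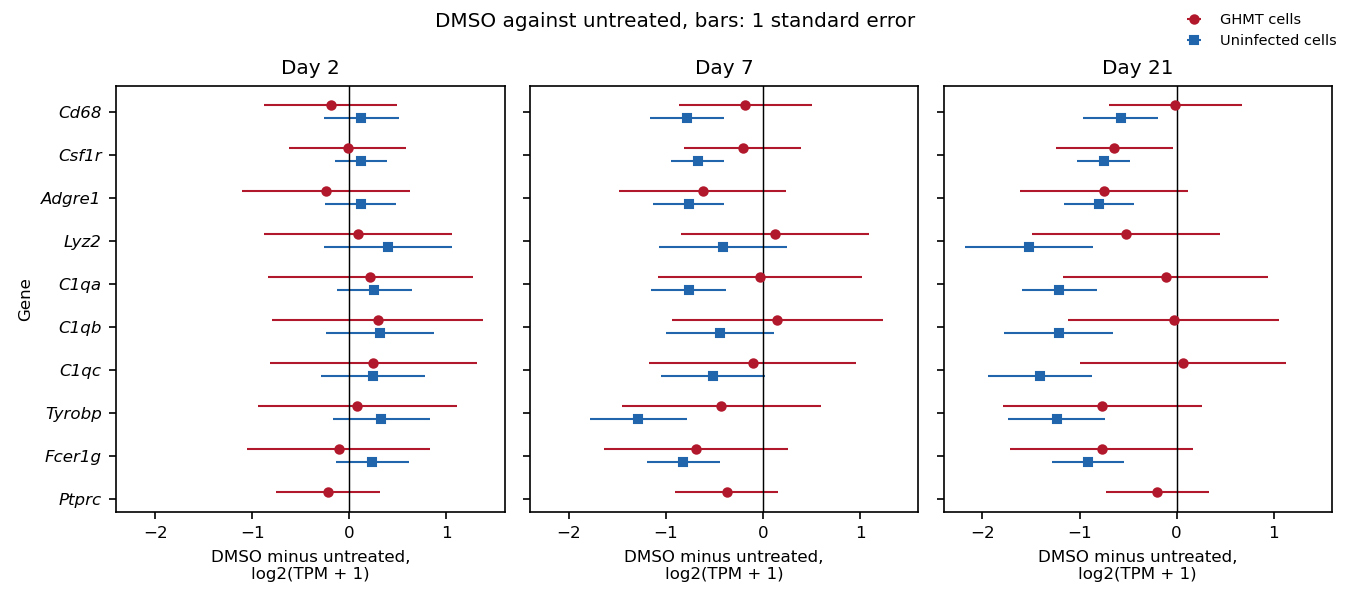
Difference between DMSO-treated and untreated cells in log2(TPM + 1) for each marker on days 2, 7 and 21, with bars of 1 standard error (3 libraries a group); red circles are GHMT cells and blue squares uninfected cells. On day 21 all 9 uninfected values lie below 0, from -0.58 to -1.52, and the GHMT values run from -0.77 to 0.07 with wider bars.

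The DMSO difference was also compared between days and arms. In uninfected cells it was more negative on day 21 than on day 2 for all 9 genes, by 0.70 (Cd68) to 1.92 (Lyz2) log2 units, with 5 of the 9 and 3.99% of all genes at an unadjusted p under 0.05 and none of the 9 called (limma, adjusted p = 1 for each), where 0.035% of all genes were called. In GHMT cells the change between these days was -0.85 for Tyrobp, the most negative of the 10, and none was called (adjusted p of at least 0.87), where 0.0679% of all genes were. Between arms on day 21, the C1q genes differed by 1.10 to 1.48 log2 units, less negative in GHMT cells, with standard errors of 1.17 to 1.27 and adjusted p of at least 0.62. None of the 9 genes tested was called there, nor on days 2 and 7, and 0 had an unadjusted p under 0.05 (limma). These fits leave out the replicate number, so in GHMT cells the lack of calls does not bear on differences within same-numbered pairs. Over all genes the test called 0% on day 2, 0.0213% on day 7 and 0.277% on day 21.

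Over time, no marker was called in uninfected cells. In untreated uninfected cells all 9 were higher on day 7 than on day 2, by 0.75 (Fcer1g) to 1.55 (Tyrobp) log2 units. Lyz2 was at 10.5, 10.0 and 18.4 TPM on day 2, at 47.0, 14.3 and 80.5 TPM on day 7, and at 23.5, 47.2 and 63.0 TPM on day 21. All 3 libraries of day 7 were above all 3 of day 2 for C1qa, C1qb, Csf1r and Tyrobp, 4 of the 9 genes, as they were for 15.1% of all genes. For the other 5 genes tested replicate 2 of day 7 lay within or below the range of day 2. None was called (limma, adjusted p of at least 0.13), 8 had an unadjusted p under 0.05, as had 16.1% of all genes, and 2.14% of all genes were called. Without replicate 2 of day 7 the lowest adjusted p was 0.057. With DMSO, the change between days 2 and 7 ran from -0.31 (Fcer1g) to 0.76 (C1qc), and that between days 7 and 21 from -0.31 (C1qa) to -1.08 (C1qc), with none called, where 2.11% and 1.5% of all genes were called, and with 0 and 1 at an unadjusted p under 0.05 (limma). Between days 7 and 21 untreated, none was called and 0 had an unadjusted p under 0.05, where 1.15% of all genes were called.

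**Figure D5:**
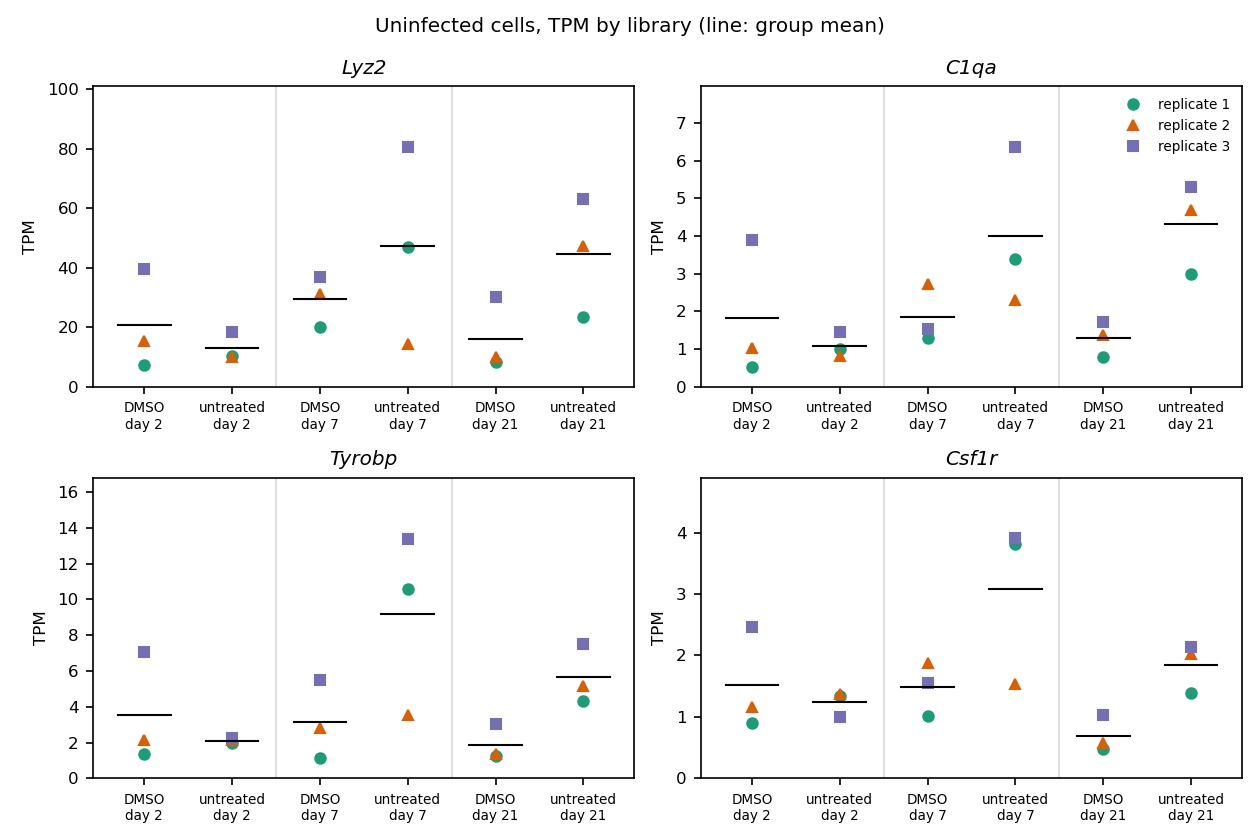
TPM of Lyz2, C1qa, Tyrobp and Csf1r in the 18 uninfected libraries, by day, with DMSO left of untreated; symbols give the replicate number and lines the mean of 3. Untreated replicate 2 of day 7 lies low in all 4 panels, and on day 21 the DMSO libraries of C1qa, Tyrobp and Csf1r lie below all untreated ones.

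In GHMT cells no time comparison called a marker, and 0 had an unadjusted p under 0.05 in any of the 4 (limma). These fits leave out the replicate number, which took 91.2 to 98.9% of the sum of squares of the markers within groups. The lack of calls therefore does not bear on changes within a replicate number. Fits with a replicate block are given in the closing section. Between days 2 and 7 the difference ran from -0.76 (Fcer1g) to 0.11 (Csf1r) with DMSO and from -0.23 (Cd68) to 0.35 (Adgre1) untreated. The test called 17.4% and 4.78% of all genes there. Untreated GHMT cells kept Lyz2 at 53.9, 147 and 23.3 TPM on day 2, 52.0, 149 and 20.7 TPM on day 7, and 55.6, 147 and 30.5 TPM on day 21, so each replicate number stayed near its own Lyz2 level. Not all markers did: untreated Tyrobp was at 17.5, 36.4 and 3.32 TPM on day 2, and at 10.6, 16.5 and 3.85 TPM on day 21. The change between days 2 and 21 was not tested. Between days 7 and 21 the test called 0.577% of all genes with DMSO and 0.31% untreated, and none of the 10.

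The composition of the marker set differed between the arms' tables. C1qa over C1qb was 0.858 to 1.33 in the 18 GHMT libraries and 0.186 to 0.698 in the 18 uninfected ones, with no overlap. The mean of the C1q subunits over Lyz2 was 0.168 to 0.41 in GHMT libraries, with a median of 0.272, and 0.106 to 0.208 in uninfected libraries, with a median of 0.147. C1qc over C1qb overlapped, with medians of 0.857 in GHMT and 0.917 in uninfected libraries. Since the tables were deposited separately, whether these ratios differ through the cells or through the processing was not tested.

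Of the ligands of the CSF1 receptor, Csf1 was abundant and Il34 low. Csf1 was at 175 to 342 TPM in GHMT libraries and at 113 to 370 TPM in uninfected libraries, and was not called with DMSO on any day (limma, adjusted p of at least 0.12). Il34 was at 0.941 to 6.99 TPM in GHMT and 1.11 to 13.2 TPM in uninfected libraries. On day 21 Il34 was at 3.41, 2.38 and 2.05 TPM in DMSO-treated uninfected cells, against 13.2, 9.63 and 9.84 TPM untreated, with no overlap. It fell by 1.72 ± 0.37 (SE; limma, adjusted p = 0.024), beside the marker levels of the same libraries. The call was lost without any 1 of the 6 libraries except DMSO replicate 1, with an adjusted p of up to 0.098, and when the 6 were fitted alone (0.065).

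Among the partners of C1q in the complement cascade, some were called lower with DMSO, and in the fit with no block no C1q gene was. The markers had standard errors of 0.53 to 1.09 log2 units in GHMT cells, so the lack of a call does not show that C1q stayed level. In uninfected cells on day 21, C1qa and C1qc were also lower with no overlap, and C1qb was lower with overlap. In GHMT cells on day 21, 5 of the 7 partners tested fell and none rose: C1ra and C1s1, the proteases that bind C1q, C2 and C4b, their substrates, and Serping1, the C1 inhibitor. Over all genes the same test called 4.59%, and 333 of these 947 genes rose. C4b was at 1.65, 0.818 and 2.66 TPM with DMSO, against 28.3, 22.4 and 42.8 TPM untreated, a difference of -3.58 ± 0.35 (SE; limma, adjusted p = 0.00012). Serping1 was at 59.4, 40.2 and 66.3 TPM with DMSO, against 212, 192 and 321 TPM untreated. On day 7, 2 of 7 fell in GHMT cells (C4b and Serping1) and 1 of 7 in uninfected cells (C4b), where C4b also fell on day 21. In these 3 comparisons 0.708%, 1.69% and 2.36% of all genes were called. Without any 1 of their 6 libraries the C4b calls of day 7 were lost in both arms, and those of Serping1 on day 7 and C4b in uninfected cells on day 21 were lost without 5 of the 6. Of the 5 calls of GHMT cells on day 21, C1ra failed once replicate 3 untreated, or 2 or 3 with DMSO, was left out, and C2 without 1 of replicate 2 or 3 untreated or replicate 3 with DMSO. C1s1 was lost without any 1 of the 6 except DMSO replicate 1, and all 5 were lost when the 6 libraries were fitted alone (adjusted p of at least 0.056).

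Downstream of the adapters, Syk, which encodes the kinase that they recruit, fell with DMSO in GHMT cells on day 21 and in uninfected cells on days 7 and 21. In GHMT cells on day 21 it was at 2.25, 3.89 and 2.31 TPM with DMSO, against 11.2, 10.1 and 5.62 TPM untreated, a difference of -1.36 ± 0.24 (SE; limma, adjusted p = 0.0081). In uninfected cells on day 21 it was at 1.52, 1.63 and 1.24 TPM with DMSO, against 3.84, 6.87 and 4.31 TPM untreated, a difference of -1.26 ± 0.23 (SE; limma, adjusted p = 0.0081). Syk did not follow the replicate numbers that the markers followed in GHMT cells. Of the 14 receptor and kinase genes tested in GHMT cells and the 8 in uninfected cells, it was the only one called with DMSO on any day. The calls of day 21 held without any 1 of the 6 libraries but were lost when the 6 were fitted alone (adjusted p = 0.15 in each arm), and that of day 7 was lost without untreated replicate 2 or 3 or DMSO replicate 1.

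Of the other macrophage markers, 32 of 34 were lower with DMSO in GHMT cells on day 21 and 26 of 28 in uninfected cells, with medians of -0.42 and -0.51. Of all genes, 55.2% and 48.5% were lower, with medians of -0.06 and 0.01. Listed genes such as Laptm5, Fcgr3, Trem2 and Ctss moved with the markers, so these genes are not separate observations. None of the 34 was called in GHMT cells. Clec4n, which encodes the receptor dectin-2, and Tmem119, a microglial marker that osteoblasts also express, fell in uninfected cells on day 21, and Tmem119 also on day 7. Clec4n was at 0.439, 0.307 and 0.745 TPM with DMSO on day 21, against 1.75, 2.59 and 2.20 TPM untreated, a difference of -1.09 ± 0.18 (SE; limma, adjusted p = 0.0037). Tmem119 was at 39.9 to 109 TPM in the uninfected libraries, and its call of day 7 was lost without any 1 of the 6 libraries. On day 21 both calls held without any 1 library and were lost when the 6 were fitted alone (adjusted p = 0.12 for Clec4n and 0.11 for Tmem119).

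The lists for other blood cells differed in level. None of the 10 neutrophil markers reached 1 TPM in 3 libraries of a table, and their sum was at most 2.48 TPM. Of 14 lymphocyte markers 1 passed that filter in each arm, with sums of at most 5.18 TPM. Of 12 erythroid and megakaryocyte markers 3 passed, with globin genes at 0 in all GHMT libraries for Hbb-bs, Hbb-bt, Hba-a2, Hbb-y and Hbb-bh1. In the mast cell list, Mcpt4, a mast cell protease, was at 0.755 to 59.8 TPM in GHMT libraries and at most 0.0738 TPM in uninfected ones, and Fcer1a was listed at 0 in all GHMT libraries. The monocyte list summed to 399 to 2648 TPM in GHMT libraries and 766 to 2109 TPM in uninfected libraries, above the macrophage genes, and its most abundant gene was Fn1, which fibroblasts also express, with a mean of 1377 TPM over the 36 libraries. Of its 7 genes 4 were tested, and Plac8 and Ly6c2 fell with DMSO in GHMT cells on day 21. Plac8 was at 1.05, 0.656 and 3.18 TPM with DMSO, against 36.5, 23.0 and 42.0 TPM untreated, with no overlap, a difference of -3.80 ± 0.55 (SE; limma, adjusted p = 0.0021). Plac8 also fell there on day 7, by 3.23 ± 0.55 (SE; limma, adjusted p = 0.021), a call lost without 4 of the 6 libraries. Of 7 genes of MHC class II presentation 3 were tested in GHMT cells, and H2-DMa rose there on day 21, by 0.91 ± 0.19 (SE; limma, adjusted p = 0.016). Itga2b, a megakaryocyte integrin, and Aurkb, a mitotic kinase, were called in uninfected cells on day 7, at -0.95 ± 0.21 and 1.18 ± 0.28 (SE; limma, adjusted p = 0.039 and 0.047), and both calls were lost without any 1 library. Fibroblast markers were lower with DMSO in GHMT cells on day 21 in 9 of 10, where 55.2% of all genes were lower, and Thy1 and Postn were called. None of the 3 endothelial markers tested, and no mast cell or lymphocyte marker, was called with DMSO. Of 11 osteoclast and dendritic cell markers 3 were tested in each arm and none was called with DMSO. Among 13 myeloid transcription factors, 12 of them tested in GHMT cells, Zeb2 fell on day 21 by 0.49 ± 0.13 (adjusted p = 0.046). The calls of Ly6c2 (without any library except DMSO replicate 1) and Zeb2 (without any) were lost with 1 library left out, and that of H2-DMa without replicate 2 or 3 of either group.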

How the data were processed

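RNA of 36 libraries was sequenced after TRIzol lysis and TruSeq RNA library preparation, per the labels' protocols. The submitters' processing notes name Trimmomatic, FastQC and kallisto. They state no genome build, annotation or use of strand. The authors deposited TPM for each Ensembl gene, with a separate table for GHMT and for uninfected cells, per the file headers. TPM keeps no depth, so no counting error or limit for values at 0 can be given. Entries naming no gene, 97 beside 50601 that do, held up to 4.81% of TPM and were left out without rescaling.

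Genes reaching 1 TPM in 3 or more libraries of their table were analysed on the log2(TPM + 1) scale, where changes of low genes come out too small. Group means were fitted with limma 3.58.1 (R 4.3.3) and a mean-variance trend over the 18 libraries of a table, or over all 36 for differences between arms. Benjamini-Hochberg adjustment ran over all genes within each of 19 comparisons, with calls under 0.05. The fit was tested on simulated data that held no effect of replicate number, so that test does not bear on the choice of a block. Descriptions used Python 3.11.15.

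The members and the 15 other gene lists were chosen with earlier results of these data known. The naming rule took the 10 members, the 4 most abundant genes of each list, listed genes called with DMSO and the 10 genes most like the members. Abundant listed genes on which no result turned are given only within sums and counts. Replicate numbers were taken to pair libraries where all 3 same-numbered deviations from group means correlated over 0.1, across all genes tested and not the markers alone. This held for DMSO and untreated GHMT cells on day 2 (r of 0.19 to 0.34) and day 7 (0.18 to 0.25), and for untreated GHMT cells between days 2 and 7 (0.135 to 0.177). It did not hold for DMSO against untreated GHMT cells on day 21, for the other pairs of days or in uninfected cells. Alternatives were other pseudocounts, filters, scalings, fits, replicate blocks and libraries left out.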

Additional observations from a re-analysis of the deposited data

How the results depend on the processing

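No marker was called in any of the 19 comparisons, nor in any of 339 fits under alternatives without a replicate block (pseudocounts of 0.1 and 5, no filter or one at 5 TPM, other scalings, no trend, the libraries of a comparison alone, or libraries left out), where the lowest adjusted p was 0.057. Leaving out 1 library at a time kept the number called at 0 in all 144 such fits. None of these fits holds the replicate number. In GHMT cells the median standard error of the DMSO differences of the markers was 0.96 without a block and 0.16 with a block within the day. For GHMT cells and for differences between arms, the 0 calls therefore do not bear on differences within a replicate number. With the replicate block within each day, 1 of 10 markers was called for DMSO in GHMT cells on day 7 (Adgre1). For untreated GHMT cells between days 2 and 7, the block over the arm called 0 of 10. In the other comparisons the correlations over all genes did not meet the rule for pairing, although the markers of GHMT cells followed the replicate number in every group. There the block called 3 markers within the day (Adgre1, Csf1r and Lyz2) and 2 over the arm (Adgre1 and Lyz2) for DMSO in GHMT cells on day 21, and 0 over the arm without GHMT DMSO replicate 3 of that day, and over the arm 1 for DMSO in uninfected cells on day 21, 1 for day 7 against day 2 in DMSO-treated GHMT cells (also 1 without GHMT DMSO replicate 3 of day 21) and 2 for that change in untreated uninfected cells. The replicate block changed no other call of a marker. Leaving out a GHMT replicate number on all days, and the block without that library, were chosen after seeing the data. The median of all genes moved by 0.17 (DMSO) and 0.16 (untreated) between days 2 and 7 in GHMT cells, which the marker differences there include. Since TPM carries no depth, the reliability of levels near or under 1 TPM, such as Adgre1 and Ptprc in uninfected cells, is unknown.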
